A study of Bos taurus with 15 samples.

Results

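The receptors through which the bovine uterus reads progesterone, estrogen and oxytocin were followed in endometrium, the lining of the uterus, on day 14 of pregnancy. They were the 6 entries named PGR, ESR1, ESR2, OXTR, PGRMC1 and PGRMC2 in a deposited table of 32671 gene entries, taken by name without use of any measured value. All 6 passed the filter on low counts, which left 19962 entries for testing. PGR is the nuclear progesterone receptor, ESR1 and ESR2 are the nuclear estrogen receptors alpha and beta, and OXTR is the oxytocin receptor. PGRMC1 and PGRMC2 are heme-binding membrane proteins linked to progesterone responses outside the nucleus.

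In cattle, progesterone from the corpus luteum acts on the endometrium through PGR, and long exposure to progesterone lowers PGR in the uterine epithelium. In a cow without an embryo, OXTR rises in the luminal epithelium. Oxytocin acting on OXTR then sets off the prostaglandin pulses that end the luteal phase. Interferon tau, secreted by the elongating conceptus, holds OXTR down and so keeps the corpus luteum alive.

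RNA was sequenced from endometrial biopsies of 15 beef heifers (Bos taurus), 1 library per heifer, in 3 fertility classes of 5, labelled Infertile, Sub-fertile and High-fertile. All classes went through the same labelled synchronisation, with PGF (prostaglandin), GnRH, an intravaginal progesterone insert, and injected estradiol and progesterone, and every heifer then received an embryo produced in vivo, in the horn beside the corpus luteum. Heifers not seen in estrus were given GnRH and estradiol benzoate, and the sources used here do not give which heifers these were, how the classes were assigned or what the uterine flush before the biopsy recovered. The biopsy came from that same horn and holds epithelium, stroma, vessels and blood cells together, so fewer cells of a type and less RNA per cell cannot be told apart.

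Total counts ran from 40061511 to 51009815 in Infertile, 38017136 to 62858724 in Sub-fertile and 40542008 to 56164970 in High-fertile heifers. Markers of epithelium (EPCAM, KRT18), stroma (VIM, DCN), smooth muscle (MYH11, DES) and leukocytes (PTPRC) were detected in all 15 libraries. Clustering the levels of 373 pseudogene and ribosomal RNA entries, without use of class, split the libraries into a set of 8, a set of 5 and a set of 2. The set of 5 held Infertile replicates 3 and 5 and Sub-fertile replicates 1, 2 and 5, the set of 2 held Infertile replicate 2 and High-fertile replicate 1, and the set of 8 held the remaining 2 Infertile, 2 Sub-fertile and 4 High-fertile libraries. None of the 5 High-fertile libraries fell in the set of 5, so class and set are partly confounded, and the labels name no batch that would say what the sets are. Infertile replicate 2 stood apart from the other libraries in several receptors and their partner genes, as given beside each.

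Per base of transcript, PGRMC1 was the most abundant of the 6 receptors, at 137 ± 17.5 FPKM (fragments scaled to transcript length and library size; SD, n = 15), followed by PGRMC2 at 54.7 ± 9.48 FPKM. ESR1 averaged 29.2 ± 13.4 FPKM, ESR2 19.9 ± 6.85 FPKM, PGR 7.28 ± 8.44 FPKM and OXTR 4.09 ± 6.98 FPKM. PGRMC1 was above PGRMC2 in all 15 libraries, PGRMC2 above ESR1 in 14, ESR1 above ESR2 in 11, ESR2 above PGR in 14 and PGR above OXTR in 12. ESR1 and ESR2, and also PGR and OXTR, were not apart by more than their spread over heifers. ESR2 was below PGR in Infertile replicate 2 alone, at 5.83 against 35.85 FPKM. This order holds for the entries as deposited: PGR and ESR1 each had a second, more abundant entry in the table, described below.

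The 6 receptors differed widely in how much they varied between heifers. On the log2 CPM scale (CPM is the count scaled to a common library size with TMM factors) OXTR had an SD of 1.90 over the 15 heifers, above 98.7% of all tested genes. PGR had an SD of 1.26, above 94.6% of tested genes, and ESR1 one of 0.794. The membrane components were among the steadier genes, with an SD of 0.236 for PGRMC2 and 0.188 for PGRMC1, against a median of 0.441 over all tested genes.

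**Figure D1:**
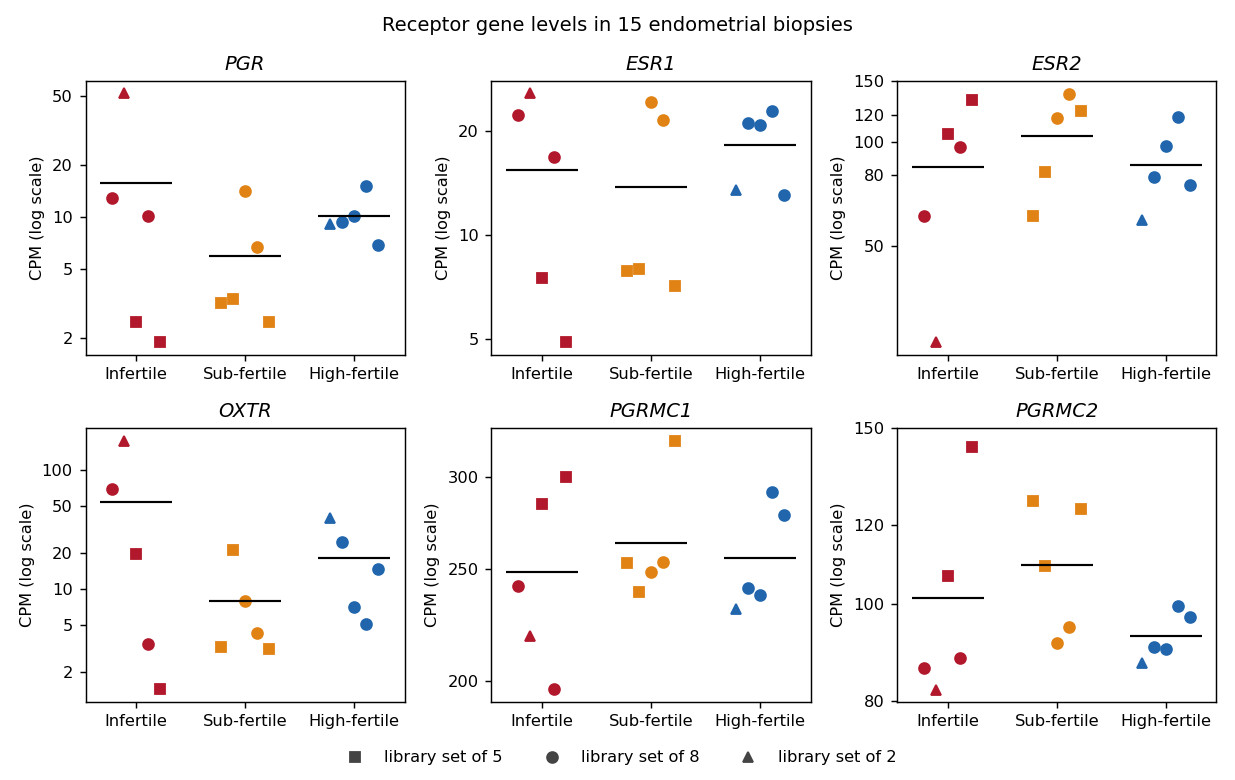
CPM on a log axis of the 6 receptor genes in each of 15 heifers by fertility class; colour marks the class, the marker shape the library set, and bars are class means. OXTR spans 1.43 to 175.6 CPM within the Infertile class alone, while PGRMC1 stays between 196.7 and 322.9 CPM in all heifers.

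The classes were compared to ask whether heifers of lower fertility differ in these receptors. No receptor differed between any pair of classes by edgeR's quasi-likelihood test with Benjamini-Hochberg adjustment over the 19962 genes (threshold 0.05), where 0% of all genes passed in each comparison. At an unadjusted p under 0.05 the receptors numbered 0 of 6 for Infertile against High-fertile (background 11%), 0 of 6 for Sub-fertile against High-fertile (background 13.7%) and 1 of 6, OXTR, for Infertile against Sub-fertile (background 2.63%). The classes overlapped for all 6 receptors in all 3 comparisons; over all genes, classes did not overlap for 2.22%, 5.07% and 0.205% of genes in the same order. DESeq2 called 34, 19 and 11 genes in these comparisons and limma-voom 1, 0 and 1, with 0 receptors among them for either tool. Testing all 3 classes at once gave 1 of 6 at an unadjusted p under 0.05, again OXTR (background 8.42%), and 0 of 6 after adjustment. With library set in the model 0 of 6 reached an unadjusted p under 0.05 in any comparison (backgrounds 7.66%, 2.51% and 1.75%). In each comparison 3 receptors were higher and 3 lower, and the median log2 fold change over the 6 was 0.05, -0.18 and 0.04, against 0.04, 0.01 and 0.03 over all tested genes.

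**Figure D2:**
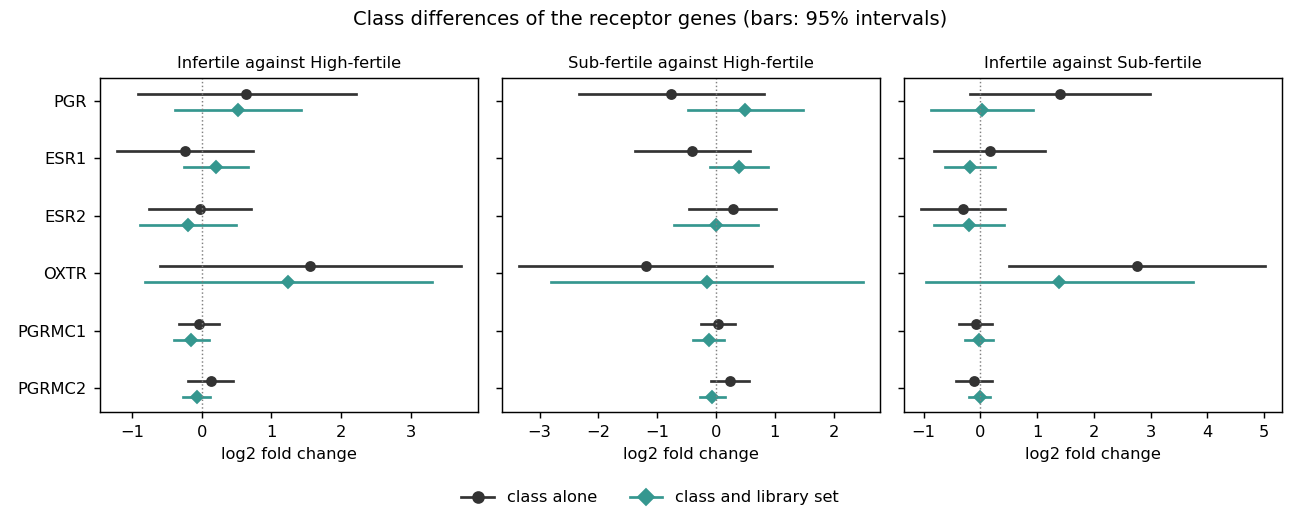
Log2 fold changes of the 6 receptor genes in the 3 class comparisons with 95% intervals, from the model with class alone (circles) and with class and library set (diamonds). All intervals include 0 except that of OXTR for Infertile against Sub-fertile with class alone, 0.50 to 5.02, and the OXTR intervals are the widest.

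PGR was spread over a 27.3-fold range. The entry stood at 12.8, 51.5, 2.47, 10.1 and 1.89 CPM in Infertile replicates 1 to 5, at 3.19, 3.34, 14.0, 6.72 and 2.48 CPM in Sub-fertile replicates 1 to 5 and at 9.05, 9.29, 10.1, 15.1 and 6.92 CPM in High-fertile replicates 1 to 5. Infertile replicate 2 was far above all others, and 2 Infertile and 4 Sub-fertile heifers lay below every High-fertile heifer. The log2 fold change was 0.64 ± 0.734 (SE; 95% interval -0.92 to 2.21, edgeR adjusted p = 0.717) for Infertile against High-fertile, and -0.57 without Infertile replicate 2. For Sub-fertile against High-fertile it was -0.76 ± 0.737 (-2.33 to 0.81, edgeR adjusted p = 0.589), and 0.50 with library set in the model. For Infertile against Sub-fertile it was 1.40 ± 0.746 (-0.19 to 2.99, edgeR adjusted p = 0.998), but 0.03 with library set in the model and 0.19 without Infertile replicate 2.

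ESR1, the receptor through which estradiol drives uterine growth, was split in the same way. Its entry held 22.3, 25.8, 7.55, 16.9 and 4.90 CPM in Infertile replicates 1 to 5, 7.89, 8.01, 24.35, 21.6 and 7.15 CPM in Sub-fertile replicates 1 to 5 and 13.5, 21.1, 20.9, 22.9 and 13.1 CPM in High-fertile replicates 1 to 5. Infertile replicates 3 and 5 and Sub-fertile replicates 1, 2 and 5, the 5 lowest for PGR too, lay below all the rest, with no value between 8.01 and 13.1 CPM. Log2 fold changes were -0.24 ± 0.456 for Infertile against High-fertile, -0.41 ± 0.457 for Sub-fertile against High-fertile and 0.17 ± 0.457 for Infertile against Sub-fertile (edgeR adjusted p = 0.840, 0.644 and 0.998). All 3 turned round with library set in the model, to 0.20, 0.39 and -0.19, and the last also turned, to -0.10, without Infertile replicate 2.

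The 5 heifers lowest in PGR and in ESR1 were those of the library set of 5. PGR ran from 1.89 to 3.34 CPM in the set of 5, against 6.72 to 15.1 CPM in the set of 8, and ESR1 from 4.90 to 8.01 CPM, against 13.1 to 24.35 CPM. With class in the model, the set of 5 was lower by a log2 fold change of -2.25 ± 0.414 for PGR (edgeR adjusted p = 0.0013) and -1.69 ± 0.206 for ESR1 (edgeR adjusted p = 7.36e-05). PGRMC2 was higher in the set of 5, at 106.6 to 143.5 CPM against 86.3 to 99.6 CPM in the set of 8 (log2 fold change 0.44 ± 0.0851, edgeR adjusted p = 0.00184). PGRMC1, OXTR and ESR2 did not pass (edgeR adjusted p = 0.123, 0.726 and 0.844). These 3 of 6 receptors, 2 lower and 1 higher, stand against 30.7% of all genes that passed the same test, 17.6% lower and 13.1% higher, so a difference between the sets was common in the table. PGR, ESR1 and PGRMC2 did not overlap between the 2 sets, as was the case for 23.3% of all genes. This comparison was added after the data were seen.

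The table held a second entry for each of these genes, found after the values were seen. PGR is described there as progesterone receptor-like, and so is LOC101902845, with a length of 1072 bases against 1459 for PGR, as recovered from the counts and FPKM values. ESR1 covered only 543 bases, and a further entry with the same symbol and a suffix, ESR1-2, covered 1776 bases. Whether each pair holds pieces of 1 gene was not tested, since no coordinates of the deposited build were used here.

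LOC101902845 stood at 31.7 ± 18.9 FPKM and ESR1-2 at 84.8 ± 17.9 FPKM over the 15 heifers, each above its partner entry. Neither showed the split between sets. LOC101902845 ran from 27.9 to 38.9 CPM in the set of 5 and from 20.7 to 37.75 CPM in the set of 8 (log2 fold change 0.08 ± 0.324, edgeR adjusted p = 0.885). ESR1-2 ran from 99.5 to 164.9 CPM in the set of 5 and from 101.3 to 177.2 CPM in the set of 8 (-0.26 ± 0.199, edgeR adjusted p = 0.370). The ratio of the paired entries separated the set of 5 from the other sets. LOC101902845 had 10.7 to 14.7 counts per PGR count in the set of 5, against 2.21 to 3.25 in the set of 8 and 1.996 to 2.44 in the set of 2. ESR1-2 had 17.7 to 21.4 counts per ESR1 count in the set of 5, against 6.95 to 7.96 in the set of 8 and 8.56 to 8.96 in the set of 2. The difference between sets was thus carried by 1 entry of each pair, and what makes it was not tested.

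**Figure D3:**
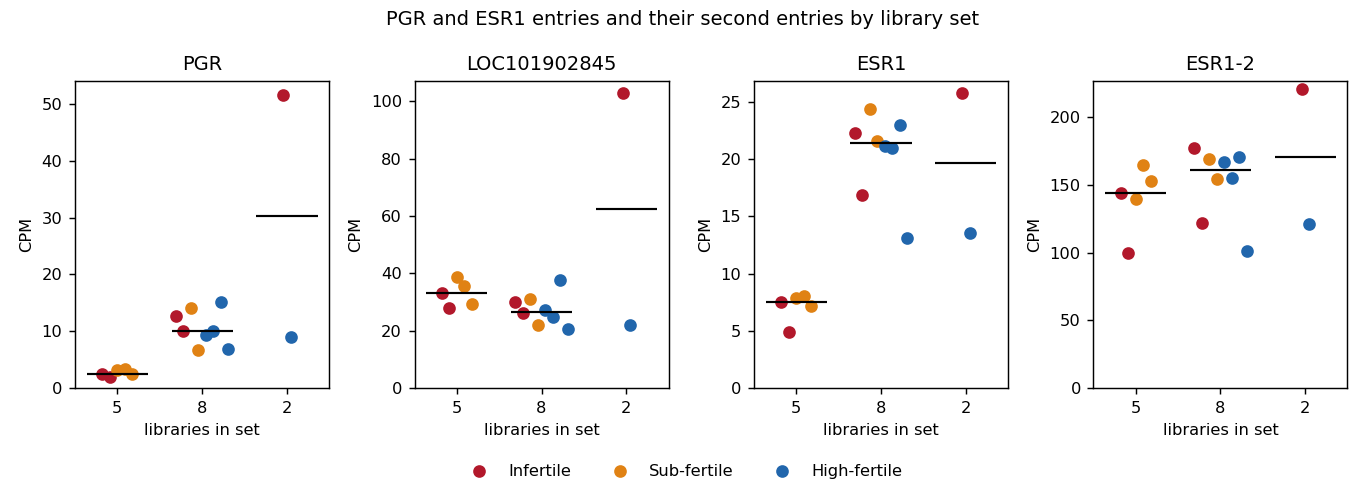
CPM of PGR, LOC101902845, ESR1 and ESR1-2 in the library sets of 5, 8 and 2; points are heifers coloured by fertility class and bars are set medians. PGR and ESR1 do not overlap between the sets of 5 and 8, while LOC101902845 and ESR1-2 do.

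Within the set of 8 the paired entries moved together over heifers. The correlation of log2 CPM was r = 0.947 (Spearman rho = 0.881) between LOC101902845 and PGR, with an exact permutation p of 0.000496 for r and 0.00724 for rho. After adjustment over the 13 relations added after seeing the data these were 0.00645 and 0.0666, and r was 0.941 without the 2 libraries farthest from the median. ESR1-2 and ESR1 had r = 0.970 and rho = 0.833 over the same 8 libraries (exact permutation p = 0.00251 and 0.0154, adjusted p = 0.0162 and 0.0666), and r = 0.529 without the 2 farthest, so that relation rested on them.

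By class, LOC101902845 averaged 44.0 ± 32.98 CPM in Infertile, 31.35 ± 6.55 CPM in Sub-fertile and 26.5 ± 6.78 CPM among High-fertile heifers (SD, n = 5 each). Infertile replicate 2 held 102.9 CPM and no other heifer more than 38.9 CPM. Its log2 fold change was 0.73 ± 0.346 for Infertile against High-fertile (edgeR adjusted p = 0.453), 0.24 ± 0.345 for Sub-fertile against High-fertile and 0.49 ± 0.345 for Infertile against Sub-fertile. Without Infertile replicate 2 the first was 0.15 ± 0.193 (edgeR adjusted p = 0.696) and the last -0.10 ± 0.193. ESR1-2 averaged 153 ± 47.6 CPM in Infertile, 156 ± 11.4 CPM in Sub-fertile and 143 ± 30.5 CPM among High-fertile heifers, with log2 fold changes of 0.09, 0.13 and -0.03 in the 3 comparisons, or -0.08, 0.13 and -0.20 without Infertile replicate 2. Summed with their second entries, PGR had log2 fold changes of 0.71, 0.03 and 0.68 and ESR1 of 0.06, 0.08 and -0.02 for Infertile against High-fertile, Sub-fertile against High-fertile and Infertile against Sub-fertile. Without Infertile replicate 2 the summed values were -0.02, 0.03 and -0.05 for PGR and -0.12, 0.08 and -0.20 for ESR1.

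GREB1, a classical target of the estrogen receptor, followed ESR1-2 across heifers. It was chosen for this relation after values were seen. Over the 15 heifers r was 0.772 and rho 0.839 (permutation p = 0.00066 and 0.00021, adjusted over the 13 relations 0.00858 and 0.00273). Without the 2 libraries farthest from the ESR1-2 median r was 0.842. Within the set of 8 r was 0.840 (exact permutation p = 0.00375, adjusted p = 0.0162). There rho was 0.810 (exact permutation p = 0.0218, adjusted p = 0.0708) and did not pass. Without the 2 farthest of that set r was 0.528 (exact permutation p = 0.290, adjusted p = 0.619). Infertile replicate 2 had the highest level of both, at 220.5 CPM for ESR1-2 and 216.1 CPM for GREB1, and no other heifer was above 63.8 CPM of GREB1. Without that library r was 0.677 (permutation p = 0.00782, adjusted p = 0.0254). GREB1 and LOC101902845 had r = 0.720 over the 15 heifers (permutation p = 0.0148, adjusted p = 0.0602). For that pair r was 0.729 in the set of 8 and 0.22 without Infertile replicate 2. GREB1 and OXTR had r = 0.5565 (permutation p = 0.0307, adjusted p = 0.0602), and 0.225 without Infertile replicate 2.

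ESR2, the beta form of the estrogen receptor, did not follow ESR1. It stood at 60.95, 26.3, 105.5, 96.8 and 132.2 CPM in Infertile replicates 1 to 5, at 61.05, 82.0, 117.3, 137.5 and 123.2 CPM in Sub-fertile replicates 1 to 5 and at 59.35, 79.4, 97.45, 118.2 and 75.3 CPM in High-fertile replicates 1 to 5. Infertile replicate 2 was the lowest of all, and apart from it the classes covered the same range. Its log2 fold changes were -0.03 ± 0.346 for Infertile against High-fertile, 0.28 ± 0.346 for Sub-fertile against High-fertile and -0.30 ± 0.346 for Infertile against Sub-fertile (edgeR adjusted p = 0.980, 0.679 and 0.998), and the first was 0.20 without Infertile replicate 2.

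In the RefSeq annotation of a newer assembly (ARS-UCD2.0) the span of the ESR2 model overlaps that of SYNE2, a nuclear envelope gene. Exons were not compared, and the sources used here do not give the strand setting of the counting. Whether reads of SYNE2 were counted for ESR2 is therefore not known. SYNE2 averaged 573 ± 111.6 CPM in Infertile, 634 ± 86.9 CPM in Sub-fertile and 516 ± 37.8 CPM among High-fertile heifers. ESR2 and SYNE2 correlated at r = 0.518 and rho = 0.629 over 15 heifers (permutation p = 0.0418 and 0.0144, adjusted p = 0.0604 and 0.0374), and at r = 0.722 without the 2 farthest libraries. Leaving out Infertile replicate 2 alone gave r = 0.729 (permutation p = 0.00447, adjusted p = 0.0194). Within the set of 8 r was 0.706 (exact permutation p = 0.0538, adjusted p = 0.117).

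ESR2 also went with the summed level of 18 epithelial markers. Over the 15 heifers r was 0.564 and rho 0.675 (permutation p = 0.0370 and 0.00721, adjusted p = 0.0602 and 0.0269), and r was 0.750 without the 2 farthest libraries and 0.701 without Infertile replicate 2. In the set of 8 r was 0.857 (exact permutation p = 0.00727, adjusted p = 0.0236). There rho was 0.738 (exact permutation p = 0.0458, adjusted p = 0.119) and did not pass. Without the 2 farthest of that set r was 0.671 (exact permutation p = 0.126, adjusted p = 0.548). The markers summed to 1659 to 2479 CPM in Infertile, 976.5 to 2860 CPM in Sub-fertile and 1692 to 2124 CPM among High-fertile heifers. None of the 18 was at 0 in every library, and the part of epithelium in the ESR2 level was not tested.

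OXTR was the most variable of the receptors. It stood at 68.3, 175.6, 19.5, 3.45 and 1.43 CPM in Infertile replicates 1 to 5, which were 3260, 8256, 859, 177 and 56 counts. Sub-fertile replicates 1 to 5 held 3.26, 21.0, 7.83, 4.28 and 3.12 CPM, and High-fertile replicates 1 to 5 held 39.6, 24.6, 6.97, 5.07 and 14.7 CPM. The Infertile class held both the 2 highest heifers and the lowest, 122.8-fold apart, and it spanned the range of the other classes. In the RefSeq annotation the span of the OXTR model overlaps those of CAV3, a muscle caveolin, and SSUH2. Whether reads of these genes were counted for OXTR is not known either.

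OXTR averaged 53.7 ± 73.3 CPM in Infertile, 7.90 ± 7.57 CPM in Sub-fertile and 18.2 ± 14.2 CPM among High-fertile heifers (SD, n = 5 each). The log2 fold change was 2.76 ± 1.06 for Infertile against Sub-fertile (95% interval 0.50 to 5.02, edgeR p = 0.0198, adjusted p = 0.998), and an exact permutation test of the mean log2 CPM gave p = 0.318. It was 1.55 without Infertile replicate 2, 3.54 without Sub-fertile replicate 2 and 1.39 with library set in the model. For Infertile against High-fertile it was 1.56 ± 1.01 (-0.60 to 3.72, edgeR adjusted p = 0.535), and 0.35 without Infertile replicate 2. For Sub-fertile against High-fertile it was -1.20 ± 1.01 (-3.35 to 0.95, edgeR adjusted p = 0.532). That last value was -1.97 without Sub-fertile replicate 2, -0.70 without High-fertile replicate 1 and -0.15 with library set in the model.

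OXTR and ESR2 ran in opposite directions across heifers. Of the 15 pairs of receptors, pairs with PGR, ESR1 or PGRMC2 fall into clusters by library set, so no correlation over all libraries is given for them. Over the 15 heifers OXTR and ESR2 had r = -0.790 and rho = -0.718 (permutation p = 0.00055 and 0.00351, adjusted over the 15 pairs 0.00206 and 0.0105). Infertile replicate 2, highest in OXTR and lowest in ESR2, was at the end of the range, and without it r was -0.659 (permutation p = 0.0122, adjusted p = 0.0366). Without the 2 libraries farthest from the ESR2 median r was -0.592 and rho -0.571 (permutation p = 0.0346 and 0.0459, adjusted p = 0.104 and 0.138). In the set of 8 alone r was -0.860 (exact permutation p = 0.00553, adjusted p = 0.0830) and rho -0.714, or r = -0.695 without the 2 farthest.

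**Figure D4:**
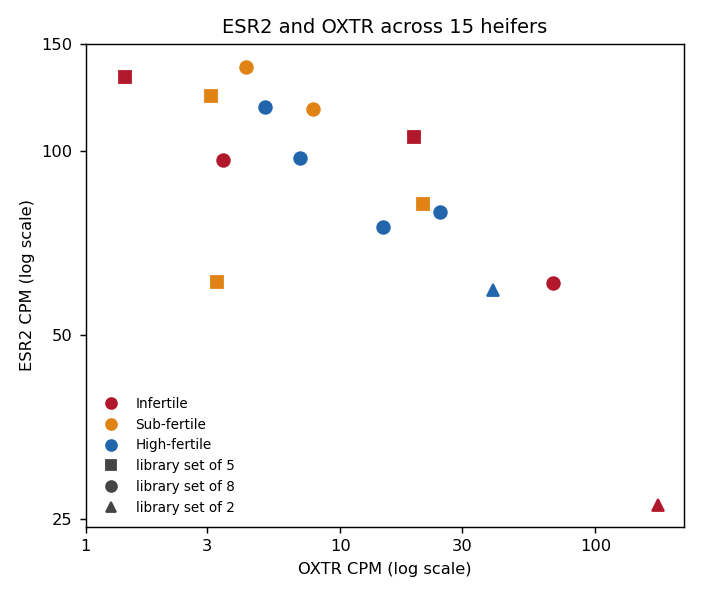
ESR2 CPM against OXTR CPM in 15 heifers, both on log axes; colour marks the class and shape the library set. Points fall from upper left to lower right (r = -0.790), with Infertile replicate 2 at the far right, at 175.6 CPM of OXTR and 26.3 CPM of ESR2, and Sub-fertile replicate 1 low in both.

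Smooth muscle, which carries oxytocin receptors in the uterine wall, can be taken up in a forceps biopsy. The summed level of 15 smooth muscle markers ran from 1233 to 28860 CPM in Infertile, 1382 to 7499 CPM in Sub-fertile and 1712 to 14450 CPM among High-fertile heifers, with none of the 15 markers at 0 in every library. All 15 markers had log2 fold changes below 0 for Sub-fertile against High-fertile (median -0.92) and above 0 for Infertile against Sub-fertile (median 0.99), and 0 of them passed by edgeR. With library set in the model, 9 of 15 were below 0 in the first comparison (median -0.06). In the second, 15 of 15 stayed above 0 (median 0.4). OXTR correlated with the muscle sum at r = 0.594 and rho = 0.668 over 15 heifers (permutation p = 0.0195 and 0.00829, adjusted over the 13 relations 0.0602 and 0.0269), and at r = 0.677 without the 2 libraries farthest from the OXTR median. Leaving out Infertile replicate 2 gave r = 0.769 (permutation p = 0.0015, adjusted p = 0.0194). Within the set of 8 r was 0.673 (exact permutation p = 0.0640, adjusted p = 0.119) but -0.17 without the 2 farthest libraries, so within that set the relation rested on them.

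The 2 Infertile heifers with the highest OXTR differed in muscle. Infertile replicate 1 had 68.3 CPM of OXTR and the highest muscle sum, 28860 CPM. Infertile replicate 2 had 175.6 CPM of OXTR and a muscle sum of 3359 CPM, below the High-fertile median of 7491 CPM. The part of muscle in the OXTR level of the other heifers was not tested.

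**Figure D5:**
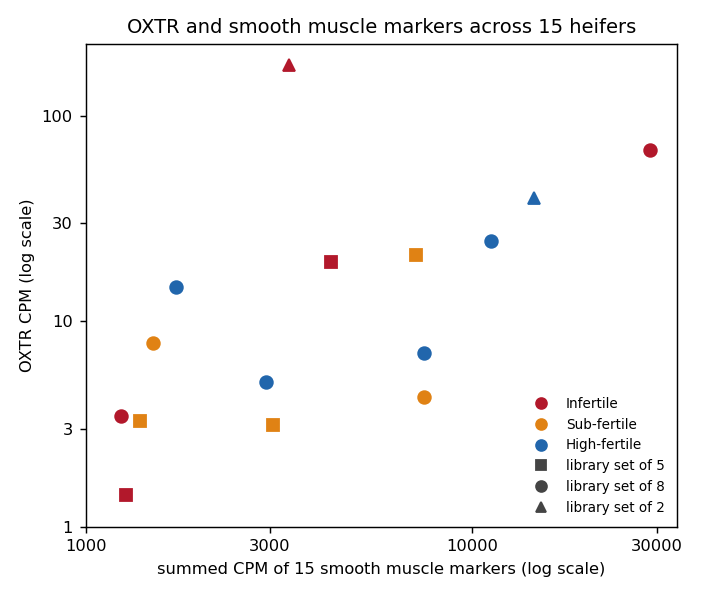
OXTR CPM against the summed CPM of 15 smooth muscle markers in 15 heifers, both on log axes; colour marks the class and shape the library set. Infertile replicate 2, at 175.6 CPM of OXTR and 3359 CPM of muscle markers, lies above the other 14 heifers.

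Infertile replicate 2 was also apart in genes around these receptors, chosen after its values were seen. OXT, the gene for oxytocin itself, had 257 counts there and 0 to 2 counts in each of the other 14 libraries. MKI67, a proliferation marker, stood at 46.7 CPM there, against 0.919 to 2.26 CPM in the other Infertile, 1.53 to 2.61 CPM in Sub-fertile and 1.19 to 4.17 CPM among High-fertile heifers. PTGES, a prostaglandin E synthase, stood at 12.3 CPM, and at most at 3.804 CPM in the other libraries.

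Other genes were lowest in that library. PTGS2, the inducible enzyme of prostaglandin synthesis, stood at 1.36 CPM in Infertile replicate 2, against 12.25 to 93.8 CPM in the other Infertile, 31.8 to 93.9 CPM in Sub-fertile and 20.04 to 127.6 CPM among High-fertile heifers. FKBP5, a cochaperone induced by progesterone and glucocorticoids, stood at 46.7 CPM there and at 180.6 to 383.5 CPM in the other 14 libraries. AKR1B1, a prostaglandin F synthase of bovine endometrium, stood at 85.5 CPM, against 180.2 to 544.9 CPM in the others. Of all libraries, Infertile replicate 2 had the highest levels of PGR, LOC101902845, ESR1, ESR1-2, OXTR and GREB1 and the lowest of ESR2 and PGRMC2. For PGRMC2 the margin was small, at 82.1 CPM against 86.3 CPM in Infertile replicate 1, the next lowest.

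PGRMC1 was present at nearly equal levels in all heifers. It stood at 241.5, 218.6, 284.3, 196.7 and 300.4 CPM in Infertile replicates 1 to 5, at 252.9, 239.0, 248.5, 253.3 and 322.9 CPM in Sub-fertile replicates 1 to 5 and at 230.9, 240.6, 237.2, 291.3 and 278.3 CPM in High-fertile replicates 1 to 5. The highest heifer was 1.64-fold above the lowest, and the classes overlapped along most of that range. Its log2 fold change was -0.04 ± 0.135 (95% interval -0.33 to 0.25) for Infertile against High-fertile, 0.04 ± 0.135 (-0.25 to 0.33) for Sub-fertile against High-fertile and -0.08 for Infertile against Sub-fertile.

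PGRMC2 stood at 86.3, 82.1, 106.6, 88.25 and 143.5 CPM in Infertile replicates 1 to 5, at 126.7, 109.2, 91.3, 94.8 and 124.4 CPM in Sub-fertile replicates 1 to 5 and at 87.2, 90.5, 90.05, 99.6 and 97.0 CPM in High-fertile replicates 1 to 5. The 5 highest values were those of the library set of 5, and the High-fertile heifers were closer together than those of the other classes. Log2 fold changes were 0.13 ± 0.151 for Infertile against High-fertile, 0.23 ± 0.151 for Sub-fertile against High-fertile and -0.11 ± 0.151 for Infertile against Sub-fertile (edgeR adjusted p = 0.731, 0.424 and 0.998). The first 2 became -0.07 and -0.06 with library set in the model, and the first was -0.03 without Infertile replicate 5. Within the set of 8, PGRMC1 and PGRMC2 correlated at r = 0.806 and rho = 0.857 (exact permutation p = 0.0134 and 0.0107, adjusted over the 15 pairs 0.100 and 0.161), and at r = 0.833 without the 2 farthest.

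Of 19 related receptors and membrane partners, 18 were in the table and 13 were tested. By edgeR 0 of 13 passed in any class comparison, and the median log2 fold change was -0.04 for Infertile against High-fertile, 0.01 for Sub-fertile against High-fertile and 0.09 for Infertile against Sub-fertile. Among the membrane progesterone receptors, PAQR8 had the highest mean per base of transcript, 5.975 FPKM over the 15 heifers against 5.66 FPKM for PAQR6, and stood at 22.3 ± 9.06 CPM in Infertile, 24.1 ± 7.45 CPM in Sub-fertile and 19.5 ± 4.14 CPM among High-fertile heifers. PAQR6 averaged 16.2 ± 4.79 CPM in Infertile, 13.5 ± 5.03 CPM in Sub-fertile and 20.5 ± 1.94 CPM among High-fertile heifers (Sub-fertile against High-fertile log2 fold change -0.60 ± 0.252, edgeR adjusted p = 0.360). PAQR7 and PAQR5 stayed between 2.70 and 6.88 CPM in every class mean, and PAQR9 was under the filter. GPER1, the membrane estrogen receptor, averaged 1.32 ± 0.0934 CPM in Infertile, 1.45 ± 1.23 CPM in Sub-fertile and 1.46 ± 0.235 CPM among High-fertile heifers.

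ESRRG, an orphan receptor related to the estrogen receptors, had the smallest p of this list. It stood at 1.01, 2.47, 2.99, 1.93 and 1.97 CPM in Infertile replicates 1 to 5, at 4.28, 1.88, 1.23, 0.656 and 1.41 CPM in Sub-fertile replicates 1 to 5 and at 0.643, 0.635, 0.858, 0.736 and 0.651 CPM in High-fertile replicates 1 to 5. All 5 Infertile and 4 of 5 Sub-fertile heifers were above every High-fertile heifer. Over all genes, Infertile and High-fertile did not overlap for 2.22%. The log2 fold change was 1.55 ± 0.429 for Infertile against High-fertile (edgeR adjusted p = 0.435) and 1.42 ± 0.428 for Sub-fertile against High-fertile (edgeR adjusted p = 0.360), so neither passed. With library set in the model these were 1.1 ± 0.387 and 0.734 ± 0.431. ESRRA averaged 19.5 ± 7.95 CPM in Infertile, 14.8 ± 7.91 CPM in Sub-fertile and 23.2 ± 2.79 CPM among High-fertile heifers, while ESRRB was under the filter.

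Among the other steroid receptors, NR3C1, the glucocorticoid receptor, averaged 69.6 ± 26.6 CPM in Infertile, 64.3 ± 17.3 CPM in Sub-fertile and 54.3 ± 9.68 CPM among High-fertile heifers. NR3C2, the mineralocorticoid receptor, stayed between 9.06 and 9.34 CPM in the class means. NENF, a secreted relative of the PGRMC proteins, averaged 77.0 ± 28.4 CPM in Infertile, 61.1 ± 15.7 CPM in Sub-fertile and 94.5 ± 9.31 CPM among High-fertile heifers (Sub-fertile against High-fertile edgeR adjusted p = 0.360). SERBP1, a partner of PGRMC1, averaged 278 ± 31.0 CPM, 256 ± 19.4 CPM and 250.5 ± 12.4 CPM in Infertile, Sub-fertile and High-fertile heifers, and CYB5D2 averaged 25.2 ± 4.39 CPM, 23.8 ± 4.65 CPM and 25.5 ± 2.93 CPM. The vasopressin receptors AVPR1A and AVPR2, close relatives of OXTR, were under the filter, and AVPR1B had 0 counts in all 15 libraries.

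Chaperones that fold steroid receptors and coregulators that carry their action were counted as groups. Of 16 chaperones 0 passed by edgeR, and their median log2 fold changes were 0.05, -0.01 and 0.08 for Infertile against High-fertile, Sub-fertile against High-fertile and Infertile against Sub-fertile. The lowest p were those of PPP5C, a phosphatase of the receptor complex, at 41.9 ± 9.59 CPM in Infertile, 38.4 ± 5.61 CPM in Sub-fertile and 49.75 ± 5.03 CPM among High-fertile heifers, and of the heat shock protein HSPA4. Of 22 coregulators 0 passed, with medians of -0.05, -0.06 and -0.02. CREBBP, a histone acetyltransferase that steroid receptors recruit, averaged 207 ± 19.4 CPM in Infertile, 230.2 ± 16.65 CPM in Sub-fertile and 249.6 ± 10.7 CPM among High-fertile heifers (Infertile against High-fertile log2 fold change -0.27 ± 0.0943, edgeR adjusted p = 0.435). MED1, a Mediator subunit that binds nuclear receptors, averaged 161 ± 10.3 CPM in Infertile, 168 ± 14.8 CPM in Sub-fertile and 144 ± 2.91 CPM among High-fertile heifers.

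Genes known to follow PGR or ESR1 were listed as readouts of the receptors. Of 39 tested progesterone receptor targets 0 passed by edgeR, and 29 had log2 fold changes below 0 for Sub-fertile against High-fertile, the median being -0.23 against 0.01 over all genes. In the same comparison 18 of 18 leukocyte markers (median -0.64), 15 of 16 stroma markers (median -0.24) and 15 of 15 smooth muscle markers (median -0.92) were also below 0. With library set in the model, 28 of the 39 targets were below 0 (median -0.2). So were 18 of 18 leukocyte markers (median -0.38), 13 of 16 stroma markers (median -0.2) and 9 of 15 smooth muscle markers (median -0.06). The part of these markers in the target genes was not tested. For Infertile against High-fertile 23 of 39 targets were below 0 (median -0.15), or 28 of 40 (median -0.26) without Infertile replicate 2. CST3, a protease inhibitor of uterine fluid, averaged 102 ± 27.7 CPM in Infertile, 86.2 ± 11.5 CPM in Sub-fertile and 127 ± 21.0 CPM among High-fertile heifers (Sub-fertile against High-fertile edgeR adjusted p = 0.360). SPP1, the secreted adhesion protein osteopontin, averaged 21.8 ± 27.4 CPM in Infertile, 3.15 ± 2.94 CPM in Sub-fertile and 4.91 ± 4.04 CPM among High-fertile heifers, and Infertile replicate 2 alone held 65.0 CPM. Its log2 fold change was 2.15 ± 0.978 for Infertile against High-fertile, and 1.17 ± 0.912 without that library.

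Of 29 tested estrogen receptor targets 0 passed. Their median log2 fold change was 0.36 for Infertile against High-fertile, -0.18 for Sub-fertile against High-fertile and 0.34 for Infertile against Sub-fertile, where 26 of 29 were above 0, against 0.04, 0.01 and 0.03 over all genes. Without Infertile replicate 2 the first median was -0.11, with 11 of 29 above 0, and the last 0.13, with 19 of 29 above 0. With library set in the model the medians were 0.23, 0.05 and 0.06. Markers of ciliated epithelium were above 0 in 14 of 14 cases for Infertile against High-fertile (median 0.98) and for Infertile against Sub-fertile (median 0.48), and their part in the target genes was not tested. MYB, a transcription factor of proliferating cells, averaged 25.2 ± 10.35 CPM in Infertile, 18.35 ± 8.18 CPM in Sub-fertile and 10.25 ± 1.76 CPM among High-fertile heifers (Infertile against High-fertile log2 fold change 1.30 ± 0.348, edgeR adjusted p = 0.435). The summed markers of ciliated epithelium, where MYB is also active, ran from 332.4 to 909.5 CPM in Infertile, 257.7 to 923.4 CPM in Sub-fertile and 239.7 to 468.5 CPM among High-fertile heifers, and their part in the MYB level was not tested.

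Of 33 tested genes of oxytocin receptor signalling and luteolytic prostaglandin 0 passed, and the median log2 fold changes were 0.07, 0.02 and 0.01, against 0.04, 0.01 and 0.03 over all genes. PTGS1, the constitutive enzyme of prostaglandin synthesis, averaged 4.08 ± 0.599 CPM in Infertile, 5.47 ± 0.630 CPM in Sub-fertile and 5.72 ± 0.973 CPM among High-fertile heifers (Infertile against High-fertile log2 fold change -0.49 ± 0.175, edgeR adjusted p = 0.435). PLCB3, a phospholipase downstream of OXTR, averaged 57.95 ± 19.0 CPM in Infertile, 48.4 ± 10.8 CPM in Sub-fertile and 68.7 ± 2.82 CPM among High-fertile heifers. Of the 10 listed genes of the interferon tau response 0 passed. For Infertile against High-fertile 9 had log2 fold changes below 0, with a median of -0.36, or 7 with a median of -0.32 without Infertile replicate 2. In that comparison 17 of 18 leukocyte markers (median -0.30) and 12 of 13 endothelium markers (median -0.44) were below 0 as well, and their part in the interferon genes was not tested. IRF9 averaged 39.8 ± 12.8 CPM in Infertile, 46.4 ± 21.6 CPM in Sub-fertile and 69.1 ± 22.1 CPM among High-fertile heifers (Infertile against High-fertile edgeR adjusted p = 0.439), and IRF1 averaged 41.2 ± 8.36 CPM, 42.0 ± 9.05 CPM and 57.7 ± 22.5 CPM in the same classes.

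Between the library sets the group counts differed from those of the classes. By edgeR, 10 of 22 coregulators were lower in the set of 5 than in the set of 8 and 3 were higher, and 6 of 29 estrogen receptor targets were lower and 0 higher. Of 39 progesterone receptor targets 2 were lower and 1 higher. These counts stand against 17.6% lower and 13.1% higher over all genes. Of the 15 smooth muscle markers 0 passed in either direction, though their median log2 fold change was -1.2 in the set of 5 against the set of 8.

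The genes whose levels were most like each receptor over the 15 heifers were searched among 13997 genes by Pearson's r of log2 CPM. Entries with names that start with LOC or read as dates were left out of the search. LOC101902845 could therefore not be listed for PGR, while ESR1-2 could be listed for ESR1. For OXTR they were RASA3 (r = 0.880), TUBB4A (0.861) and ABI3BP (0.855). For ESR2 they were the WNT receptor FZD5 (r = 0.957), FAM13A (0.946) and ENPP4 (0.944), none of which passed between the sets of 5 and 8. Those of PGR (LRFN4, SCAND1, EMID1), ESR1 (GCC1, PRRC2B, VPS37D) and PGRMC2 (SLC25A32, BLM, MORC3) reached r of 0.963 to 0.985, and all 9 of them differed between the sets of 5 and 8 by edgeR, as their receptors did. For PGRMC1 they were TAF1A (0.905), PPP2R5A (0.903) and RAB9A (0.838). Within the set of 8, the genes nearest to PGR were CD96, GSTM2 and CEP162 instead, at r of 0.949 to 0.959, and those nearest to ESR1 were HPN, ESR1-2 and AAK1, at r of 0.967 to 0.977. All these r are the highest of the 13997 genes searched, and how high chance alone would reach was not tested.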

How the data were processed

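Endometrial RNA from 15 heifers was measured by stranded mRNA sequencing, per the labels' protocols. The authors deposited a read count and an FPKM value per gene and heifer; the submitters' processing notes name FastQC, Subread, featureCounts, edgeR and the UMD3.1 build. The sources used here do not give the strand setting or the treatment of multiply mapping reads. The deposited counts were tested; the deposited FPKM values gave levels per length and entry lengths. RefSeq ARS-UCD2.0 served for names and overlapping models alone.

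Class differences were fitted with edgeR 4.0.16 in R 4.3.3 (filterByExpr by class, TMM, glmQLFit with robust estimation, glmQLFTest; 12 residual degrees of freedom). Tests were two-sided and adjusted by Benjamini-Hochberg over 19962 genes, with a threshold of 0.05. The model recovered known changes in simulated counts. Those counts had a smaller spread than these data (common biological coefficient of variation 0.405) and held no library sets. Whether the model would find such changes at the spread of these heifers was not tested. P-values of a model across genes are from edgeR unless limma 3.58.1 or DESeq2 1.42.0 is named. Correlations were of log2 CPM (prior count 2), with 100000 permutations (all orders for 8 or fewer libraries; scipy 1.17.1).

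The receptors and gene lists were chosen with earlier results of these data known. Besides the 6 receptors, the related receptors in the table (1 of them is not reported here), the 2 genes of each other list with the smallest p among classes, the 3 genes most like each receptor (mean CPM of at least 1) and 7 tissue markers were named by rule; other named genes are said to be chosen after their values were seen. Library sets came from average-linkage clustering of pseudogene and ribosomal RNA entries (CPM above 0.2 in 5 or more libraries). Alternatives covered scaling, filter, tool, library set and leaving out each library. Added after the data were seen were the second PGR and ESR1 entries, the test between library sets, 13 relations, and fits of entries and lists without Infertile replicate 2. 27 entries whose names read as dates were not renamed.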

Additional observations from a re-analysis of the deposited data

Results flagged for a closer look

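Within the classes of 5, the highest and lowest CPM of each receptor were set against the others with Dixon's criterion, 0.71 of the range. Of the 18 groups, chance passes about 1 in 20 only where values are normally distributed, which was not tested for these CPM. Values past the criterion were found in 3 groups. PGR in Infertile replicate 2 was at 51.5 CPM, with the other Infertile heifers between 1.89 and 12.8 CPM. In log2 CPM it was at 5.69, with the others between 0.95 and 3.68, a gap under 0.71 of the range. OXTR in Sub-fertile replicate 2 was at 21.0 CPM, with the other Sub-fertile heifers between 3.12 and 7.83 CPM. In log2 CPM it was at 4.4, with the others between 1.66 and 2.98, again a gap under 0.71 of the range. PGRMC1 in Sub-fertile replicate 5 was at 322.9 CPM, with the other Sub-fertile heifers between 239.0 and 253.3 CPM. In log2 CPM it was at 8.34, with the others between 7.9 and 7.99, a gap still over 0.71 of the range.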

How the results depend on the processing

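Under every alternative 0 of 6 receptors passed in any class comparison. Log2 fold changes turned round as follows, and the cause was not tested. With library set in the model, Infertile against High-fertile was 0.20 for ESR1 and -0.07 for PGRMC2, Sub-fertile against High-fertile was 0.50 for PGR, 0.39 for ESR1, -0.13 for PGRMC1 and -0.06 for PGRMC2, and Infertile against Sub-fertile was -0.19 for ESR1. In the set of 8 alone these were -0.12 for PGRMC2 in the first comparison, 0.22 for ESR1, -0.07 for PGRMC1 and -0.03 for PGRMC2 in the second and -0.23 for ESR1 in the last. Without the set of 2, Infertile against High-fertile was -0.61 for PGR and 0.09 for ESR2, and Infertile against Sub-fertile was -0.10 for ESR1. For Infertile against High-fertile, PGR was -0.25 by limma-voom and -0.30 as a difference of mean log2 CPM, and ESR2 was 0.004882 with upper quartile scaling. Summed with the second entries, Infertile against High-fertile was 0.06 for ESR1, Sub-fertile against High-fertile 0.03 for PGR and 0.08 for ESR1, and Infertile against Sub-fertile -0.02 for ESR1. Leaving out each library in turn gave for Infertile against High-fertile -0.57 to 0.93 for PGR, -0.51 to -0.02 for ESR1, -0.25 to 0.20 for ESR2, 0.35 to 2.06 for OXTR, -0.12 to 0.04 for PGRMC1 and -0.03 to 0.19 for PGRMC2. For Sub-fertile against High-fertile it gave -1.36 to -0.56 for PGR, -0.71 to -0.24 for ESR1, 0.16 to 0.42 for ESR2, -1.97 to -0.70 for OXTR, -0.04 to 0.09 for PGRMC1 and 0.18 to 0.29 for PGRMC2. For Infertile against Sub-fertile it gave 0.19 to 1.99 for PGR, -0.10 to 0.46 for ESR1, -0.53 to -0.08 for ESR2, 1.55 to 3.54 for OXTR, -0.16 to -0.0001291 for PGRMC1 and -0.27 to -0.04 for PGRMC2. The correlated receptor pairs past the threshold numbered 8 of 15 over all libraries, 0 in the set of 8, 3 without the 2 farthest libraries, 2 after subtraction of the library set mean and 5 to 12 without each library in turn. In the set of 8 the correlation turned to 0.0114 for PGR with ESR2, 0.0438 for PGR with PGRMC1, 0.362 for ESR1 with ESR2, 0.0488 for ESR1 with PGRMC1 and 0.121 for OXTR with PGRMC1. No paired analysis was possible, since each heifer was in 1 class and the replicate numbers used here pair no heifers between classes. The lowest count of any receptor in a library was 56, for OXTR.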
